A study of Sus scrofa with 15 samples.

Results

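Remote ischemic preconditioning in its late window was compared with no preconditioning in the kidney of the pig. The comparison used 10 of the 15 arrays of the series, those of 5 pigs labelled no IPC (control) and of 5 pigs labelled remote IPC with a late window (rIPCl). All were female Yorkshire pigs of the same age and, per the study's methods, of a single kidney model: the left kidney was removed first, and the remaining right kidney later underwent warm ischemia by clamping of its artery and vein. In rIPCl the right external iliac artery, which feeds the hind limb, had been clamped and released in short cycles 24 h before renal ischemia, and in control it had not. The warm ischemia lasted 90 min by the control labels and, per the study's methods, in both groups. Tissue of both groups was taken at 72 h, so that every kidney described here is an injured and recovering one and none is an uninjured kidney. The control label names no sham clamping of the limb. The other 5 arrays, of pigs preconditioned just before ischemia (rIPCe), entered the normalization and the shared estimate of the spread. RNA was hybridised to 1-colour Agilent porcine arrays, 1 array per pig, and a log2 signal below is the quantile-normalized log2 intensity of a probe. It compares the same probe between pigs and not 1 gene with another.

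The proximal tubule reabsorbs most of the filtered load and pays for it by oxidising fatty acids in its many mitochondria. It also makes glucose, breaks down amino acids and conjugates drugs and toxins, and it is the segment that warm ischemia injures most readily. After such an injury surviving tubule cells lose part of these functions, re-enter the cell cycle and replace lost neighbours, while leukocytes enter the interstitium and the matrix around the tubules is remodelled. In whole-kidney RNA a lower signal from fewer cells of a type and one from less RNA per cell cannot be told apart.

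Of 3020 genes with a symbol, 287 (9.5%) had a limma adjusted p under 0.05 between rIPCl and control, 135 (4.47%) of them higher in rIPCl and 152 (5.03%) lower. The median log2 fold change over all of them was -0.02. Over all 43603 probes, most of them without a symbol here, 2736 (6.27%) had a limma adjusted p under 0.05, 2540 (5.83%) had a fold change of at least 2 with an unadjusted p under 0.05 in limma, and 985 (2.26%) with an adjusted p under 0.05. Complement, coagulation and cytokine genes are set aside here, and 29 lists of other genes, with 545 measured members, are described. The kidney markers SLC34A1, AQP2, CALB1, CLIC5 and WT1 were well above background on all 10 arrays. No probe could be given the symbol of UMOD, SLC12A1, NPHS1, HAVCR1, CD68 or MPO. Spots well above background made up 62.2% to 69.5% on control arrays and 71.8% to 74.2% on rIPCl arrays, without overlap, and the part of this difference in the results was not tested. Of the slides, 1 held control arrays 1 to 4, another control array 5 with 3 rIPCe arrays, a further one rIPCl array 1 with 2 rIPCe arrays, and the last rIPCl arrays 2 to 5, so no slide held both groups compared. The array of control pig 1 stood apart from the other control arrays in leukocyte and cell cycle genes, and that of rIPCl pig 3 from the other rIPCl arrays in lymphocyte and tubule genes, so values without them are given beside the results they touch.

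The adjusted p of the called genes lay between 0.0156 and 0.05 in limma, and the number called changed with single arrays. Without control 1 the counts were 230 higher (7.62%) and 171 lower (5.66%), and without rIPCl 1 they were 259 and 241. They fell to 8 and 12 without control 2, to 22 and 24 without control 3, to 37 and 48 without control 4, and to 55 and 65 without rIPCl 2. Without rIPCl 3, 4 or 5 the counts were 6 and 6, 3 and 3, and 1 and 2. Of the 82 called genes among the 169 named, 79 were called without control 1, 76 without rIPCl 1, 72 without control 5 and 42 without rIPCl 2, but 8, 18 and 27 without control 2, 3 or 4, and 6, 3 and 1 without rIPCl 3, 4 or 5. At an unadjusted p under 0.05 in limma, 538 genes were higher and 523 lower, and the same counts ranged from 440 to 567 and from 388 to 579 when each array was left out in turn.

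**Figure D1:**
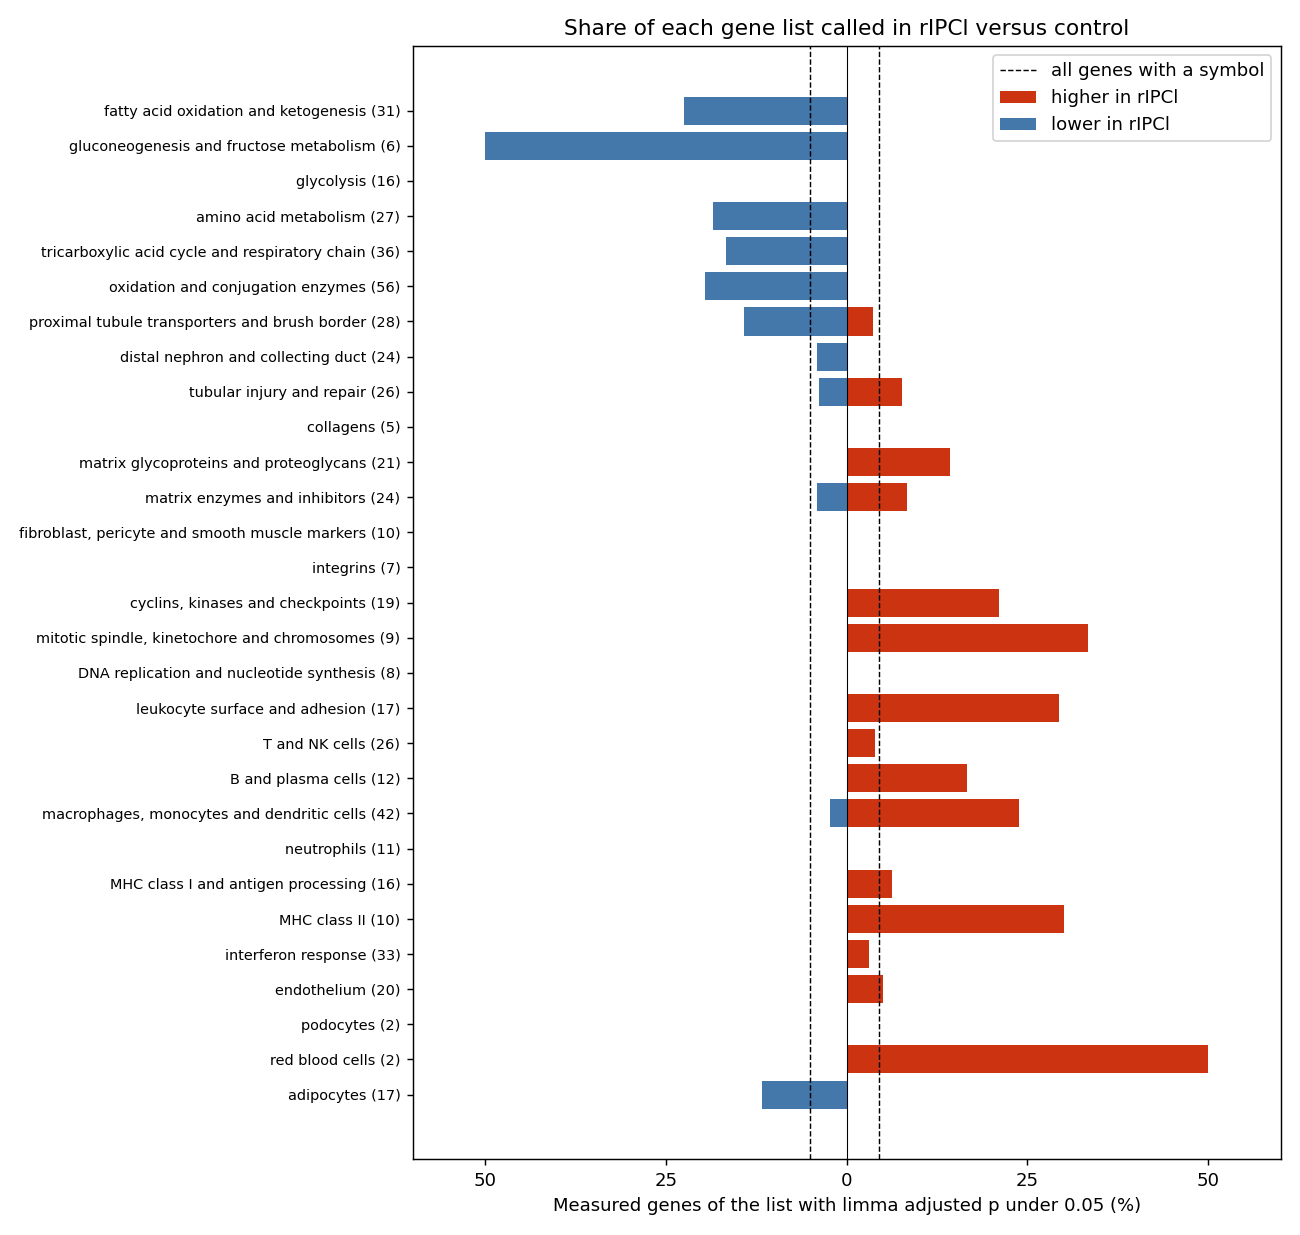
Percentage of the measured genes of each list with a limma adjusted p under 0.05 in rIPCl versus control, drawn to the right when higher and to the left when lower, with the number of measured genes in brackets. Dashed lines mark the percentages over all 3020 genes, 4.47% higher and 5.03% lower. The metabolic lists other than glycolysis, which had 0 calls, and the proximal tubule list extend to the left, and cell cycle, leukocyte, macrophage and MHC class II lists to the right.

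Calls among genes of tubule metabolism were all towards lower signals in rIPCl. Of 172 measured members of the 6 metabolic lists 32 were called lower and 0 higher, 18.6% against 5.03% of all genes, and the median log2 fold change was -0.36. With the transport genes of the tubule added, 37 of 224 were lower (16.5%) and 1 was higher (0.45% against 4.47% of all genes). The count of lower genes was 46 without control 1 and also 46 without rIPCl 1. It was 2, 8 and 13 without control 2, 3 or 4, and 20, 2, 1 and 0 without rIPCl 2, 3, 4 or 5. Between 79 and 107 of the 224 genes were lower at an unadjusted p under 0.05 in limma when each array was left out. Over all 3020 genes this range was 388 to 579.

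Fatty acid oxidation genes were called lower in 7 of 31 cases (22.6% against 5.03% of all genes) and higher in 0, with a median of -0.45. The log2 signal of CPT2, the inner membrane enzyme that hands long-chain fatty acids to mitochondrial β-oxidation, was 8.38, 9.32, 8.19, 8.72 and 8.11 on control arrays 1 to 5 and 7.20, 7.84, 6.64, 7.16 and 7.05 on rIPCl arrays 1 to 5. All rIPCl arrays lay below all control arrays, as they did for 6.99% of all genes, and the difference was -1.37 ± 0.28 (SE) on the log2 scale, 2.58-fold lower in rIPCl (limma adjusted p = 0.0244). ACADM, which opens β-oxidation of medium-chain fatty acids, had log2 signals of 14.38, 15.21, 14.64, 14.50 and 14.88 on control arrays 1 to 5 and 14.09, 14.08, 13.44, 13.68 and 14.10 on rIPCl arrays 1 to 5. Its groups did not overlap either, and the difference was -0.85 ± 0.19 (SE) on the log2 scale, 1.80-fold lower in rIPCl (limma adjusted p = 0.0293). The other 6 probes of ACADM gave differences from -1.27 to -0.83. SCP2, a peroxisomal thiolase and sterol carrier, was lower by the greatest amount in the list, at -1.58 (limma adjusted p = 0.0394), although only 1 rIPCl array lay below all control arrays because control 1, at 7.47, was as low as the rIPCl arrays. DBI, which binds acyl-CoA, differed by -1.09 (limma adjusted p = 0.0313), the peroxisomal fatty acid transporter ABCD3 by -0.87 (limma adjusted p = 0.0406), and the carnitine acetyltransferase CRAT by -0.60 (limma adjusted p = 0.0404). CPT1A, the outer membrane enzyme that controls entry, was at -0.59 (limma adjusted p = 0.238), short of the threshold. The regulator of the pathway, PPARA, was at 0.11 (limma adjusted p = 0.808) and its coactivator PPARGC1A at 0.01 (limma adjusted p = 0.982). The median over the list was between -0.78 and -0.16 on the rIPCl arrays, lowest on rIPCl 3, against -0.20 on control 1 and -0.08 to 0.33 on the other control arrays. Without rIPCl 3 the median difference was -0.30.

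Glucose production and fructose metabolism, taken as 1 list, gave fewer measured genes but larger differences. Of 6 genes 3 were called lower (50% against 5.03% of all genes), and all 6 had a difference below 0, with a median of -0.89. SORD, which turns sorbitol to fructose, had log2 signals of 12.30, 13.07, 12.92, 13.04 and 12.90 on control arrays 1 to 5 and 11.67, 12.40, 11.31, 11.57 and 12.12 on rIPCl arrays 1 to 5. Only rIPCl 2 overlapped the control range, at its lower end set by control 1, and the difference was -1.03 ± 0.26 (SE) on the log2 scale, 2.04-fold lower in rIPCl (limma adjusted p = 0.0366). FBP1, the fructose bisphosphatase that commits carbon to glucose, had log2 signals of 16.56, 17.75, 17.03, 17.23 and 17.33 on control arrays 1 to 5 and 15.76, 16.88, 15.99, 16.33 and 16.38 on rIPCl arrays 1 to 5. Again rIPCl 2 was the 1 array inside the control range, and the difference was -0.91 ± 0.23 (SE) on the log2 scale, 1.88-fold lower in rIPCl (limma adjusted p = 0.0386). G6PC, the catalytic subunit of glucose-6-phosphatase, which releases free glucose, fell furthest, with a mean of 11.59 ± 1.38 (SD, n = 5) in control and 8.31 ± 1.77 (SD, n = 5) in rIPCl, a difference of -3.28 ± 0.87 (SE) on the log2 scale, 9.73-fold lower in rIPCl (limma adjusted p = 0.0433). Its groups overlapped too. PCK1, PCK2 and PC, which feed the same pathway from oxaloacetate and pyruvate, were at -0.87, -0.77 and -0.45 and did not pass the test. On control 1 the list median was -0.89, inside the rIPCl range of -1.30 to -0.31, and without that array the median difference was -1.11. Glycolysis, the opposite direction of flow, had 0 of 16 genes called in limma, 3 with an unadjusted p under 0.05 and 0 called by the methods' t-test, and its median of -0.05 became -0.23 with arrays scaled on their 75th percentile and not by quantiles and 0.35 with slide as a fixed block.

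Amino acid metabolism had 5 of 27 genes lower (18.5% against 5.03% of all genes) and 0 higher. Its median was -0.36, and -0.27 without rIPCl 3. CTH, which makes cysteine from cystathionine, had log2 signals of 13.21, 14.62, 14.10, 14.35 and 14.65 on control arrays 1 to 5 and 12.54, 13.17, 12.28, 12.86 and 12.91 on rIPCl arrays 1 to 5. The groups were separate, and the difference was -1.43 ± 0.27 (SE) on the log2 scale, 2.70-fold lower in rIPCl (limma adjusted p = 0.0213). BHMT, which uses betaine to remethylate homocysteine, had log2 signals of 13.06, 14.59, 14.15, 13.15 and 14.42 on control arrays 1 to 5 and 11.40, 12.23, 10.23, 11.41 and 11.74 on rIPCl arrays 1 to 5. It too was lower on every rIPCl array than on any control array, by -2.47 ± 0.47 (SE) on the log2 scale, 5.54-fold lower in rIPCl (limma adjusted p = 0.0224). MAOA, which oxidises amines, was at -1.19 (limma adjusted p = 0.0255), GLUD1, which takes ammonium from glutamate, at -1.14 (limma adjusted p = 0.0358), and the aminoacylase ACY1 at -1.09 (limma adjusted p = 0.0441). All 10 probes of GLUD1 gave a lower signal, the other 9 by -1.67 to -0.83. In the opposite direction, GATM, which starts creatine synthesis in the proximal tubule, was higher on all 5 rIPCl arrays than on any control array but missed the threshold, at 1.05 (limma adjusted p = 0.104). Glutamine synthetase GLUL was at -0.02 (limma adjusted p = 0.949).

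In the tricarboxylic acid cycle and respiratory chain, 6 of 36 genes were lower (16.7% against 5.03% of all genes) and 0 higher. A difference below 0 was seen in 35 of 36, each by a small amount with a median of -0.34. ATP5I, a subunit of ATP synthase, had log2 signals of 16.67, 16.80, 16.90, 16.82 and 16.57 on control arrays 1 to 5 and 16.49, 15.97, 15.73, 15.90 and 15.96 on rIPCl arrays 1 to 5. The 2 groups were apart, by -0.75 ± 0.15 (SE) on the log2 scale, 1.68-fold lower in rIPCl (limma adjusted p = 0.0244). NDUFC1, a subunit of complex I, also separated the groups, at -0.66 (limma adjusted p = 0.0255), as did NDUFB6 of the same complex at -0.48 (limma adjusted p = 0.0329), ATP5G3 of ATP synthase at -0.54 (limma adjusted p = 0.0363) and the isocitrate dehydrogenase subunit IDH3B at -0.51 (limma adjusted p = 0.0417). DLD, the shared dehydrogenase of pyruvate and 2-oxoglutarate oxidation, was at -0.46 (limma adjusted p = 0.0347). Citrate synthase CS was at -0.21 (limma adjusted p = 0.357) and SDHB of complex II at -0.36 (limma adjusted p = 0.0595). With slide as a fixed block the median of the list was 0.09, and the differences of ATP5I, NDUFC1 and ATP5G3 were 0.07, 0.06 and 0.10, none of them past the threshold. Without rIPCl 3, the array with the lowest list median, the median difference was -0.26.

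Oxidation and conjugation enzymes, which handle drugs, toxins and oxygen radicals, formed the list with most lower genes by count. They were lower in 11 of 56 cases (19.6% against 5.03% of all genes) and higher in 0. By share, the smaller lists of gluconeogenesis (50%) and fatty acid oxidation (22.6%) stood above them. The median of the oxidation and conjugation list was -0.51, and -0.38 without rIPCl 3. GSTO1, an omega class glutathione transferase, had log2 signals of 16.46, 16.88, 16.75, 16.75 and 16.64 on control arrays 1 to 5 and 15.48, 15.48, 14.67, 15.43 and 15.17 on rIPCl arrays 1 to 5. No array of either group entered the range of the other, and the difference was -1.45 ± 0.25 (SE) on the log2 scale, 2.72-fold lower in rIPCl (limma adjusted p = 0.0195). NQO1, a quinone reductase, had log2 signals of 12.50, 12.03, 11.95, 11.77 and 11.60 on control arrays 1 to 5 and 9.27, 8.46, 8.40, 9.66 and 8.36 on rIPCl arrays 1 to 5. The groups lay far apart, at -3.14 ± 0.64 (SE) on the log2 scale, 8.81-fold lower in rIPCl (limma adjusted p = 0.0244). The remaining 2 probes of NQO1 were at -3.03 and -2.88. CYP1A1, the inducible cytochrome of the aryl hydrocarbon receptor, varied more within control, from 5.22 to 9.11, and was 4.15 to 4.96 in rIPCl, a difference of -2.69 (limma adjusted p = 0.0356). With slide as a fixed block its difference was 0.38. The aldo-keto reductase AKR1CL1 was at -1.46 (limma adjusted p = 0.0270) and the flavin monooxygenase FMO1 at -1.24 (limma adjusted p = 0.0451). Of the antioxidant enzymes, catalase (CAT) was at -1.16 (limma adjusted p = 0.0494), superoxide dismutase SOD1 at -0.93 (limma adjusted p = 0.0277) and thioredoxin (TXN) at -0.88 (limma adjusted p = 0.0314), the last being 0.01 with the slide block. Heme oxygenase HMOX1 was at -0.40 (limma adjusted p = 0.112). The plasma glutathione peroxidase GPX3, which the proximal tubule secretes, was at -0.24 (limma adjusted p = 0.185) on its brightest probe, while its other 3 probes gave -1.41 to -0.87, so that its probes disagreed in size.

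**Figure D2:**
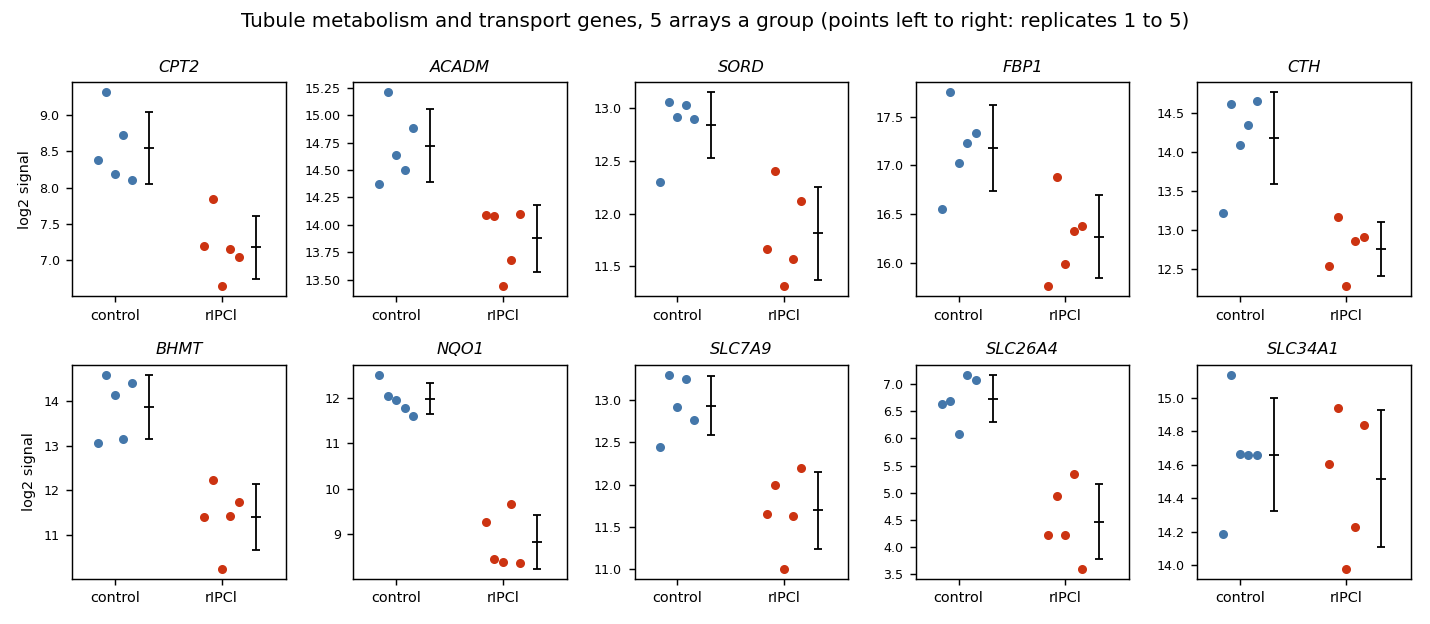
Quantile-normalized log2 signal of 10 tubule genes on each control (blue) and rIPCl (red) array, replicates 1 to 5 from left to right, with the mean and SD of 5 arrays beside them; each panel has its own axis, which does not start at 0. In CPT2, ACADM, CTH, BHMT, NQO1, SLC7A9 and SLC26A4 all rIPCl arrays lie below all control arrays, in SORD and FBP1 1 rIPCl array overlaps, and in SLC34A1 the groups overlap.

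The transporters and brush border proteins of the proximal tubule were lower in 4 of 28 cases (14.3% against 5.03% of all genes), with a median of -0.49. They were higher in 1 case, a share of 3.57% that does not exceed the 4.47% of all genes. SLC7A9, the light chain of the cystine transporter, had log2 signals of 12.45, 13.30, 12.92, 13.25 and 12.76 on control arrays 1 to 5 and 11.66, 12.00, 11.00, 11.63 and 12.20 on rIPCl arrays 1 to 5. The groups did not overlap and differed by -1.24 ± 0.25 (SE) on the log2 scale, 2.36-fold lower in rIPCl (limma adjusted p = 0.0239). CA4, the brush border carbonic anhydrase, had log2 signals of 15.14, 16.46, 15.96, 15.78 and 16.07 on control arrays 1 to 5 and 14.76, 15.47, 14.27, 13.97 and 14.92 on rIPCl arrays 1 to 5. In it rIPCl 2 lay within the control range, above control 1, and the difference was -1.20 ± 0.28 (SE) on the log2 scale, 2.30-fold lower in rIPCl (limma adjusted p = 0.0328). SLC4A4, which returns bicarbonate to the blood, was at -1.13 (limma adjusted p = 0.0433), and SLC9A3R1, the scaffold of brush border transporters, at -0.53 (limma adjusted p = 0.0366). The brush border peptidase ACE was higher by 0.57 (limma adjusted p = 0.0361) on its brighter probe, but its other probe gave -0.43, so the direction of ACE is uncertain. The phosphate transporter SLC34A1 was at -0.14 (limma adjusted p = 0.735). The organic anion transporters SLC22A6 and SLC22A8 were at -0.42 (limma adjusted p = 0.513) and -1.51 (limma adjusted p = 0.0587), and the water channel AQP1 at -0.96 (limma adjusted p = 0.0923). The list median was -1.13 on rIPCl 3 and -0.57 to 0.01 on the other rIPCl arrays, -0.39 on control 1 and -0.01 to 0.37 on the other control arrays, and without rIPCl 3 the median difference was -0.32.

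Beyond the proximal tubule 1 of 24 genes was lower (4.17%, not above the 5.03% of all genes) and 0 were higher, with a median of -0.14. SLC26A4 (pendrin), the chloride and bicarbonate exchanger of intercalated cells, had log2 signals of 6.63, 6.68, 6.09, 7.17 and 7.08 on control arrays 1 to 5 and 4.21, 4.95, 4.22, 5.35 and 3.59 on rIPCl arrays 1 to 5. It was low on every rIPCl array, the closest being rIPCl 4, and differed by -2.27 ± 0.35 (SE) on the log2 scale, 4.81-fold lower in rIPCl (limma adjusted p = 0.0156). Other markers of these segments did not pass the test: the collecting duct water channel AQP2 was at 0.55 (limma adjusted p = 0.379) with its other probe at -0.46, calbindin CALB1 at 0.18 (limma adjusted p = 0.883) and the growth factor EGF at -0.09 (limma adjusted p = 0.898).

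Tubular injury and repair genes were called higher in 2 of 26 cases and lower in 1, shares of 7.69% and 3.85% against 4.47% and 5.03% of all genes, so that the lower share did not exceed that of all genes and the higher one rests on 2 genes. VCAM1, an adhesion molecule that injured tubule and endothelium display, had log2 signals of 12.35, 11.33, 11.26, 11.71 and 11.62 on control arrays 1 to 5 and 12.98, 12.87, 13.83, 13.26 and 13.18 on rIPCl arrays 1 to 5. Even the lowest rIPCl array lay above control 1, the highest control array, and the difference was 1.57 ± 0.29 (SE) on the log2 scale, 2.97-fold higher in rIPCl (limma adjusted p = 0.0210). HSP70.2, an inducible heat shock protein, had log2 signals of 12.09, 12.76, 12.20, 12.16 and 11.76 on control arrays 1 to 5 and 11.20, 11.52, 10.77, 11.00 and 11.05 on rIPCl arrays 1 to 5. It was the 1 gene of the list called lower, at -1.09 ± 0.20 (SE) on the log2 scale, 2.13-fold lower in rIPCl (limma adjusted p = 0.0210). In all, 9 of the 26 genes had a difference below 0. Clusterin (CLU), a secreted chaperone of injured tubules, was 13.42 to 16.20 in control, highest on control 1, and 16.59 to 17.02 in rIPCl, a difference of 2.02 (limma adjusted p = 0.0277). SOX9, a transcription factor of repairing tubule cells, was at 2.50 (limma adjusted p = 0.0597), well above background on 1 control array and on all 5 rIPCl arrays. LCN2 was at 1.04 (limma adjusted p = 0.236), osteopontin (SPP1) at 0.63 (limma adjusted p = 0.377) and TIMP1 at 1.1 (limma adjusted p = 0.0513). Control 1 had a list median of 0.56, just above the rIPCl range of 0.27 to 0.53, against -0.31 to 0.09 on the other control arrays. Without control 1 there were 5 genes higher and 2 lower, in a setting that called 7.62% of all genes higher and 5.66% lower. SOX9 was then at 3.03 (limma adjusted p = 0.0247) and TIMP1 at 1.33 (limma adjusted p = 0.0192). Without rIPCl 3 the list had 0 genes higher and 0 lower, with a median difference of 0.39.

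Matrix genes were higher in 5 of 67 cases (7.46% against 4.47% of all genes) and lower in 1, and 3 of the 5 were glycoproteins and proteoglycans, whose 21 genes had a median of 0.76. MGP, which binds calcium and keeps matrix from mineralising, had log2 signals of 14.36, 14.48, 14.93, 14.22 and 15.31 on control arrays 1 to 5 and 17.01, 16.12, 16.75, 17.01 and 17.39 on rIPCl arrays 1 to 5. The gap between the groups was wide, 2.19 ± 0.48 (SE) on the log2 scale, 4.58-fold higher in rIPCl (limma adjusted p = 0.0276), and the other 4 probes gave 1.98 to 2.29. HAS3, a hyaluronan synthase, had log2 signals of 5.39, 5.58, 5.17, 5.17 and 5.78 on control arrays 1 to 5 and 6.33, 5.91, 6.19, 6.55 and 6.17 on rIPCl arrays 1 to 5. It was also separate, by 0.81 ± 0.15 (SE) on the log2 scale, 1.76-fold higher in rIPCl (limma adjusted p = 0.0209). Lumican (LUM), which spaces collagen fibrils, was at 1.49 (limma adjusted p = 0.0450). Versican (VCAN), decorin (DCN), periostin (POSTN) and SPARC, further components laid down by stromal cells, were at 1.71, 0.96, 1.16 and 0.97 and missed the threshold, with limma adjusted p of 0.0547, 0.0709, 0.126 and 0.224. Of these, VCAN passed without control 1 (2.00, limma adjusted p = 0.0314).

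Among matrix enzymes 2 of 24 were higher (8.33% against 4.47% of all genes) and 1 lower (4.17% against 5.03%). CTSB, a lysosomal cysteine protease, had log2 signals of 17.89, 18.13, 17.87, 17.95 and 17.83 on control arrays 1 to 5 and 17.26, 17.20, 16.64, 17.14 and 17.30 on rIPCl arrays 1 to 5. It was lower on all rIPCl arrays, by -0.82 ± 0.20 (SE) on the log2 scale, 1.77-fold lower in rIPCl (limma adjusted p = 0.0347). MMP14, a membrane-bound collagenase, was higher by 0.61 (limma adjusted p = 0.0387). MMP3 (stromelysin) was not well above background on any control array and was so on 3 of the 5 rIPCl arrays, where its log2 signals were 2.80 to 4.15 against 1.73 to 2.57 in control (limma adjusted p = 0.0432), and no fold is given. MMP2, lysyl oxidase (LOX) and MMP9 were at 1.01 (limma adjusted p = 0.0641), 1.13 (limma adjusted p = 0.0688) and 0.06 (limma adjusted p = 0.933), and the other probe of MMP9 gave 1.14. The collagens had 0 of 5 measured genes called by limma and 0 by the methods' t-test, and 3 with an unadjusted p under 0.05: COL1A2 was at 0.91 (limma adjusted p = 0.175) and COL5A1 at 1.02 (limma adjusted p = 0.106), while COL5A3 was at -0.20 (limma adjusted p = 0.627). In the markers of fibroblasts, pericytes and smooth muscle limma called 0 of 10, the methods' t-test 0, and 2 had an unadjusted p under 0.05, with the pericyte gene RGS5 at 1.51 (limma adjusted p = 0.0503) and ACTA2, the actin of myofibroblasts, at 0.17 (limma adjusted p = 0.716). Integrins had 0 of 7 called by limma, 0 by the methods' t-test and 2 with an unadjusted p under 0.05. The count of 5 higher matrix genes was 9 without control 1 and 8 without control 5. It was 1 without control 2, 3 or 4 or rIPCl 3, and 0 without rIPCl 4 or 5.

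Proliferation genes were higher in 7 of 36 cases (19.4% against 4.47% of all genes) and lower in 0, with a median of 0.70. CCNB2, a cyclin that drives entry into mitosis, had log2 signals of 7.38, 4.66, 4.65, 4.39 and 6.00 on control arrays 1 to 5 and 7.58, 7.94, 7.61, 8.73 and 7.44 on rIPCl arrays 1 to 5. All rIPCl arrays lay above all control arrays, as they did for 3.84% of all genes, but control 1 came close to the lowest of them, and the difference was 2.44 ± 0.60 (SE) on the log2 scale, 5.43-fold higher in rIPCl (limma adjusted p = 0.0353). BIRC5 (survivin), which guides chromosomes and blocks apoptosis, had log2 signals of 11.74, 10.00, 10.15, 10.06 and 10.37 on control arrays 1 to 5 and 11.99, 12.31, 12.41, 13.17 and 11.63 on rIPCl arrays 1 to 5. On this gene rIPCl 5 lay below control 1, and the difference was 1.84 ± 0.46 (SE) on the log2 scale, 3.58-fold higher in rIPCl (limma adjusted p = 0.0366). CCNB1, the partner of CDK1 at mitotic entry, was 6.41 to 10.10 in control and 10.12 to 11.33 in rIPCl, a difference of 2.87 (limma adjusted p = 0.0385). CDK1 was at 2.30 (limma adjusted p = 0.0544) and the mitotic kinase AURKB at 0.99 (limma adjusted p = 0.0513). The G1 cyclin CCND2 and the inhibitor CDKN1B were at -0.09 (limma adjusted p = 0.844) and 0.18 (limma adjusted p = 0.437).

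PBK, a kinase of mitotic cells, had log2 signals of 11.20, 7.70, 8.36, 8.21 and 10.15 on control arrays 1 to 5 and 11.54, 11.47, 11.26, 12.47 and 11.21 on rIPCl arrays 1 to 5. It was high on control 1 and on control 5 among the controls, and differed by 2.47 ± 0.64 (SE) on the log2 scale, 5.53-fold higher in rIPCl (limma adjusted p = 0.0406). STMN1 (stathmin), which destabilises microtubules, had log2 signals of 13.89, 11.82, 12.25, 11.53 and 13.08 on control arrays 1 to 5 and 14.24, 13.96, 14.29, 14.90 and 13.84 on rIPCl arrays 1 to 5. Of the rIPCl arrays 4 lay above every control array, and the difference was 1.73 ± 0.46 (SE) on the log2 scale, 3.32-fold higher in rIPCl (limma adjusted p = 0.0431). The spindle protein SPAG5 was at 2.37 (limma adjusted p = 0.0448) and topoisomerase TOP2A at 2.34 (limma adjusted p = 0.0513). Among DNA replication genes limma called 0 of 8 and the methods' t-test 0, while 2 had an unadjusted p under 0.05, and the primase PRIM1 was at 0.10 (limma adjusted p = 0.872) and DNMT1 at 0.19 (limma adjusted p = 0.585). The 19 cyclin, kinase and checkpoint genes had a list median of 1.04 on control 1, inside the rIPCl range of 0.73 to 1.30, against -0.38 to 0.16 on the other control arrays. The count of 7 was 13 without control 1, 11 without control 5 and 8 without rIPCl 1, and it was 0 without control 2, 3 or 4 or rIPCl 2, 3, 4 or 5, with 14 to 19 genes higher at an unadjusted p under 0.05 in these last 7 cases. The count was also 0 by the methods' t-test, with 18 at an unadjusted p under 0.05.

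**Figure D3:**
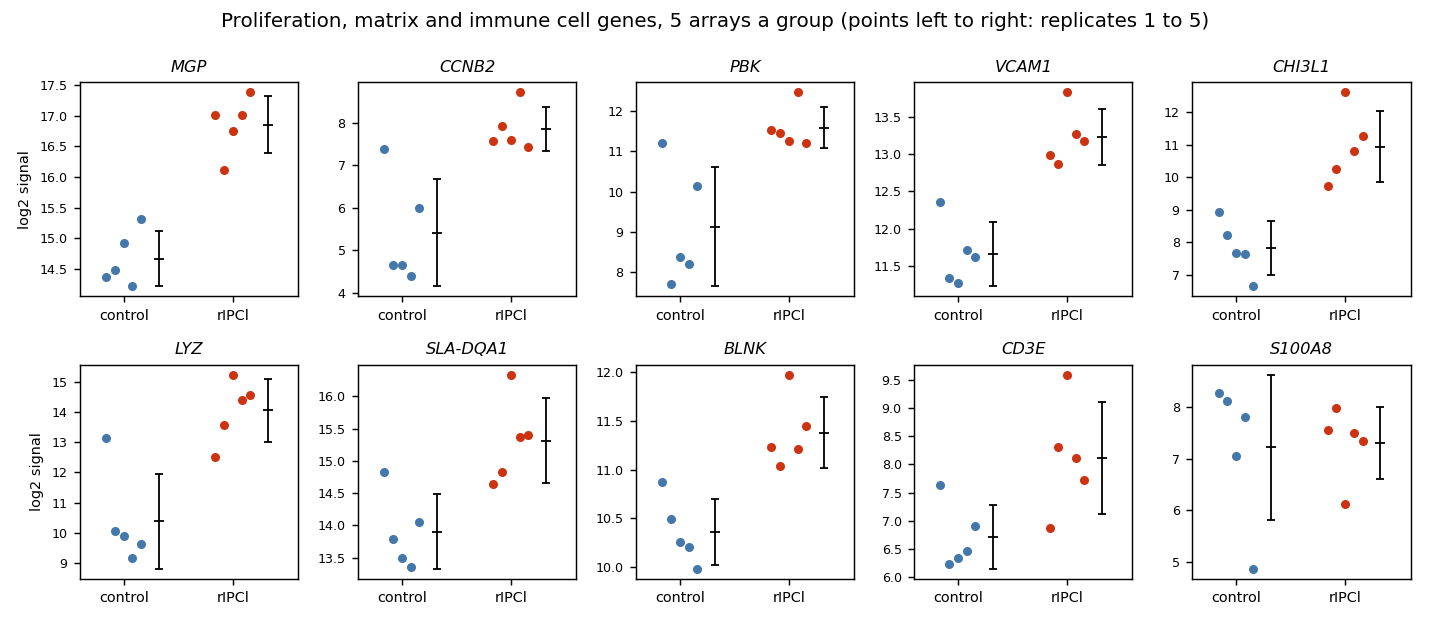
Quantile-normalized log2 signal of 10 matrix, cell cycle and immune cell genes on each control (blue) and rIPCl (red) array, replicates 1 to 5 from left to right, with the mean and SD of 5 arrays beside them; each panel has its own axis, which does not start at 0. Control 1 is the highest control array in CCNB2, PBK, VCAM1, CHI3L1, LYZ, SLA-DQA1, BLNK and CD3E; the groups are apart in MGP, CCNB2, PBK, VCAM1, CHI3L1 and BLNK and overlap in CD3E and S100A8.

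Immune cell genes were higher in 23 of 164 cases (14.0% against 4.47% of all genes) and lower in 1, and the count again changed with single arrays. Without control 1, 57 were higher, against 7.62% of all genes, and without rIPCl 1 there were 54. The count was 2, 6 and 10 without control 2, 3 or 4, and 12, 2, 1 and 0 without rIPCl 2, 3, 4 or 5. Between 63 and 96 of the 164 genes were higher at an unadjusted p under 0.05 in limma when each array was left out. Over all 3020 genes this range was 440 to 567.

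Leukocyte surface and adhesion genes were higher in 5 of 17 cases (29.4% against 4.47% of all genes), with a median of 1.20. Beside VCAM1, given above with the injury genes, MADCAM1, an adhesion molecule of the vessel wall that binds lymphocyte integrins, had log2 signals of 8.55, 7.43, 7.74, 7.66 and 7.60 on control arrays 1 to 5 and 8.79, 9.70, 10.13, 8.81 and 9.36 on rIPCl arrays 1 to 5. All rIPCl arrays lay above control 1, the highest control array, and the difference was 1.57 ± 0.31 (SE) on the log2 scale, 2.96-fold higher in rIPCl (limma adjusted p = 0.0234). CD48, on most leukocytes, was at 1.44 (limma adjusted p = 0.0422), the leukocyte integrin ITGAL at 1.20 (limma adjusted p = 0.0429) and its ligand ICAM1 at 1.05 (limma adjusted p = 0.0395). ITGB2, the partner chain of ITGAL, was at 1.51 (limma adjusted p = 0.0506). The vessel wall selectins SELP and SELE were at 0.11 (limma adjusted p = 0.879) and -0.04 (limma adjusted p = 0.957). On control 1 the list median was 0.78, inside the rIPCl range of 0.46 to 1.75, and without that array 10 genes were higher. The top of this range was rIPCl 3, and without rIPCl 3 the median difference was 0.98 and 0 genes were called.

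Genes of macrophages, monocytes and dendritic cells gave the most higher calls by count of the 29 lists, 10 of 42 (23.8% against 4.47% of all genes). By share, smaller lists stood above them, among them the mitotic spindle (33.3%), MHC class II (30%) and leukocyte surface and adhesion (29.4%). The macrophage, monocyte and dendritic cell list had 1 lower call (2.38% against 5.03% of all genes), and its median was 0.91. CHI3L1, a chitinase-like secreted protein, had log2 signals of 8.92, 8.22, 7.68, 7.66 and 6.65 on control arrays 1 to 5 and 9.75, 10.27, 12.63, 10.82 and 11.27 on rIPCl arrays 1 to 5. The groups did not overlap and differed by 3.12 ± 0.56 (SE) on the log2 scale, 8.70-fold higher in rIPCl (limma adjusted p = 0.0207). Lysozyme (LYZ) had log2 signals of 13.13, 10.08, 9.90, 9.18 and 9.63 on control arrays 1 to 5 and 12.50, 13.55, 15.22, 14.40 and 14.57 on rIPCl arrays 1 to 5. Control 1 was above rIPCl 1 and far above the other control arrays, and the difference was 3.66 ± 0.73 (SE) on the log2 scale, 12.7-fold higher in rIPCl (limma adjusted p = 0.0239). The endosomal RNA receptors TLR7 and TLR8 were at 1.73 (limma adjusted p = 0.0383) and 2.26 (limma adjusted p = 0.0391), the latter well above background on 1 control array, and apolipoprotein E (APOE), which macrophages secrete, at 2.04 (limma adjusted p = 0.0353). SPI1, a transcription factor of the myeloid line, was at 1.54 (limma adjusted p = 0.0494), well above background on 1 control and all 5 rIPCl arrays. The mannose receptor MRC1 of tissue macrophages was higher on every rIPCl array than on any control array, at 1.01 (limma adjusted p = 0.0244), whereas FOLR2, the folate receptor of resident macrophages, was lower on every one, at -1.27 (limma adjusted p = 0.0422). CD163 was at 0.90 (limma adjusted p = 0.210) and CD14 at -0.12 (limma adjusted p = 0.836). The list median was 0.98 on control 1, inside the rIPCl range of 0.42 to 1.30, and -0.36 to -0.11 on the other control arrays. Without control 1, 23 genes were higher, against 7.62% of all genes. Without rIPCl 3, the array at the top of the rIPCl range, 1 gene was higher and the median difference was 0.80.

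Lymphocyte genes showed large median differences and few calls. Of 26 T and NK cell genes 25 had a difference above 0, with a median of 1.14. Only 1 was called (3.85%, not above the 4.47% of all genes). That gene, the NK receptor NCR1, was not well above background on any control array and was so on 2 of the 5 rIPCl arrays, with log2 signals of 1.81 to 2.96 in control and 3.46 to 4.14 in rIPCl (limma adjusted p = 0.0156), and no fold is given. CD3E, of the T cell receptor complex, had log2 signals of 7.63, 6.23, 6.35, 6.47 and 6.90 on control arrays 1 to 5 and 6.87, 8.30, 9.58, 8.11 and 7.72 on rIPCl arrays 1 to 5. On it rIPCl 1 lay inside the control range, rIPCl 3 was the highest of all, and the difference was 1.40 ± 0.44 (SE) on the log2 scale, 2.64-fold higher in rIPCl (limma adjusted p = 0.0654). CD4 and CD8A, which mark helper and cytotoxic T cells, were at 1.5 (limma adjusted p = 0.0862) and 1.34 (limma adjusted p = 0.166), and the other probe of CD4 gave -0.30. FOXP3 of regulatory T cells was not well above background on any control array and on 1 rIPCl array. The list median was 2.17 on rIPCl 3 and 0.05 to 1.21 on the other rIPCl arrays, and 0.67 on control 1 and -0.33 to 0.06 on the other control arrays. Without rIPCl 3 the median difference was 0.72, without control 1 it was 1.31, and with slide as a fixed block it was -0.45.

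Of 12 B and plasma cell genes 2 were higher (16.7% against 4.47% of all genes) and 0 lower. BLNK, a linker of B cell receptor signalling, had log2 signals of 10.87, 10.49, 10.26, 10.21 and 9.98 on control arrays 1 to 5 and 11.23, 11.03, 11.98, 11.21 and 11.45 on rIPCl arrays 1 to 5. It was higher on all rIPCl arrays, by 1.02 ± 0.21 (SE) on the log2 scale, 2.03-fold higher in rIPCl (limma adjusted p = 0.0244). CD79A, a chain of the B cell receptor, had log2 signals of 4.89, 5.26, 4.07, 4.58 and 4.88 on control arrays 1 to 5 and 5.62, 5.69, 7.12, 5.89 and 5.51 on rIPCl arrays 1 to 5. Although separate, its groups were close except for rIPCl 3, and the difference was 1.23 ± 0.32 (SE) on the log2 scale, 2.35-fold higher in rIPCl (limma adjusted p = 0.0407). The immunoglobulin heavy chain gene LOC396781, whose probes can bind transcripts of near-identical genes, was at 2.65 (limma adjusted p = 0.0690) and reached 18.58 on rIPCl 3. The B cell surface gene MS4A1 was at 0.33 (limma adjusted p = 0.647). The list median was 1.88 on rIPCl 3 and 0.18 to 0.65 on the other rIPCl arrays. Without rIPCl 3 the median difference was 0.56 in place of 0.67, and with slide as a fixed block it was 0.01.

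Antigen presentation genes had differences of one sign. All 10 MHC class II genes had a difference above 0, with a median of 1.1, and 3 were called (30% against 4.47% of all genes). SLA-DQA1, an alpha chain, had log2 signals of 14.83, 13.80, 13.49, 13.35 and 14.06 on control arrays 1 to 5 and 14.64, 14.83, 16.33, 15.37 and 15.40 on rIPCl arrays 1 to 5. Control 1 was above rIPCl 1, rIPCl 3 was the highest array, and the difference was 1.41 ± 0.33 (SE) on the log2 scale, 2.66-fold higher in rIPCl (limma adjusted p = 0.0318). CD74, the invariant chain, had log2 signals of 12.02, 11.18, 10.86, 10.85 and 10.99 on control arrays 1 to 5 and 11.74, 12.41, 13.24, 12.23 and 12.30 on rIPCl arrays 1 to 5. Here too control 1 lay within the rIPCl range, and the difference was 1.20 ± 0.29 (SE) on the log2 scale, 2.30-fold higher in rIPCl (limma adjusted p = 0.0353). SLA-DMA, which loads peptide, was at 0.97 (limma adjusted p = 0.0437), and SLA-DRA and SLA-DQB1 missed the threshold at 1.11 (limma adjusted p = 0.0544) and 1.22 (limma adjusted p = 0.0516). The genes of these alpha and beta chains are alike in sequence, so that their probes may share transcripts. Without control 1, 8 of the 10 were called, with a median of 1.36, and with slide as a fixed block the median was 0.14. Without rIPCl 3 the median was 0.88 and 0 of the 10 were called. All 16 class I and antigen processing genes also had a difference above 0, with a median of 0.68. Of them 1 was called (6.25% against 4.47% of all genes), the proteasome activator PSME1 at 0.69 (limma adjusted p = 0.0210). The immunoproteasome subunit PSMB9, the peptide transporter TAP1 and the class I chains SLA-3 and B2M were at 1.14, 0.89, 0.80 and 0.26.

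The interferon response list had 1 of 33 genes higher, the receptor chain IFNGR1 at 0.67 (limma adjusted p = 0.0391), a share of 3.03% that does not exceed the 4.47% of all genes. The induced genes GBP1, MX1 and ISG15 were at 1.75, 0.56 and -0.01, with limma adjusted p of 0.0707, 0.617 and 0.995. Neutrophil genes had 0 of 11 called by limma and 0 by the methods' t-test, with 2 at an unadjusted p under 0.05 and a median of 0.08. The granule and alarmin genes S100A8, S100A9 and LTF were at 0.08 (limma adjusted p = 0.949), -0.29 (limma adjusted p = 0.749) and -0.91 (limma adjusted p = 0.321). On control 1 the neutrophil list median was 1.04, above all 5 rIPCl arrays, and without it the median difference was 0.34.

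**Figure D4:**
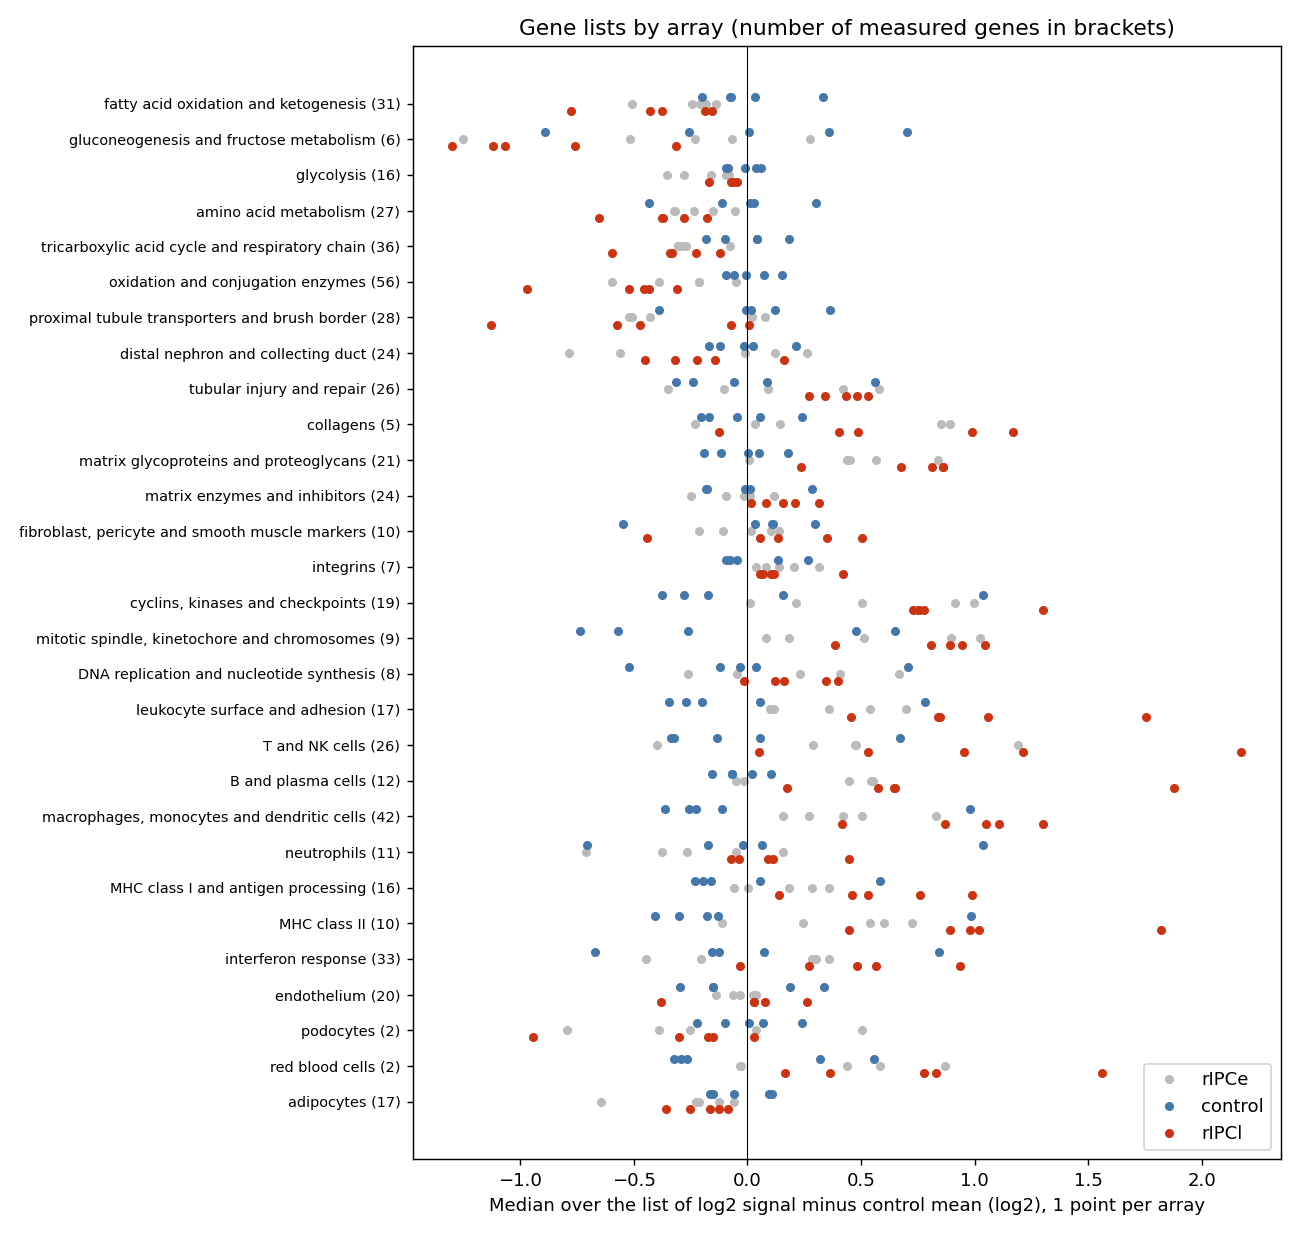
For each gene list and array, the median over the measured genes of the log2 signal minus the control mean, 1 point per array, for control (blue), rIPCl (red) and, for reference, rIPCe (grey). In the matrix glycoprotein, B cell and oxidation and conjugation lists all 5 rIPCl points lie on one side of all control points, and in the leukocyte, macrophage, MHC class II and cyclin lists control 1 lies among the rIPCl points.

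Among the markers of other cell types, 1 of 20 endothelial genes was higher (5% against 4.47% of all genes), endoglin (ENG) at 0.77 (limma adjusted p = 0.0433), and the median was 0.01, with PECAM1, CDH5 and VWF at -0.03, -0.12 and 0.46. The podocyte genes WT1 and CLIC5 were at -0.55 (limma adjusted p = 0.259) and -0.06 (limma adjusted p = 0.869), and 0 of these 2 were called by limma or the methods' t-test, with 0 at an unadjusted p under 0.05. Of 2 red cell genes 1 was called higher, and this gene, the globin HBE1, was not well above background on any control array and was so on 3 of 5 rIPCl arrays (limma adjusted p = 0.0472). Adipocyte genes were lower in 2 of 17 cases (11.8% against 5.03% of all genes), RETN at -1.59 (limma adjusted p = 0.0401) and GPD1, which is also an enzyme of liver and kidney, at -0.65 (limma adjusted p = 0.0283). ADIPOQ and PLIN1, which define fat, were not well above background on any control array, while ADIPOQ was well above it on all 5 rIPCl arrays and PLIN1 on none. The signal of ADIPOQ did not pass the test (limma adjusted p = 0.0972), and rIPCl arrays had more spots well above background in general.

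Outside the lists set aside, 152 genes passed the limma threshold, had arrays that did not overlap between the groups and stood well above background throughout at least 1 of them, 56 higher and 96 lower. Among these 152 genes the largest decrease was that of APOA4, an apolipoprotein of lipid transport, with log2 signals of 12.09, 11.49, 12.23, 11.46 and 11.16 on control arrays 1 to 5 and 7.62, 6.56, 6.67, 6.71 and 7.37 on rIPCl arrays 1 to 5, 26.0-fold lower in rIPCl (limma adjusted p = 0.0156). NQO1, CYP1A1, BHMT and SLC26A4, described above, were among the 10 largest decreases, and so were AKR1CL1 and GSTO1. G6PC, whose groups overlapped, was not among the 152 genes. AK4, a mitochondrial adenylate kinase, was at -2.02 (limma adjusted p = 0.0210). The secreted protease inhibitor SPINK4 was not well above background on any rIPCl array and was at least 4.56-fold lower in rIPCl (limma adjusted p = 0.0278). The unnamed gene LOC100526118 was at -1.76 (limma adjusted p = 0.0362).

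Among the same 152 genes, which leave out genes with overlapping groups such as LYZ, the largest increase was that of FABP7, a fatty acid binding protein known from the developing brain, with log2 signals of 3.38, 3.26, 4.49, 3.34 and 3.64 on control arrays 1 to 5 and 6.25, 7.19, 6.51, 7.63 and 6.59 on rIPCl arrays 1 to 5. It was well above background on 1 control array and on all rIPCl arrays, and differed by 3.21 ± 0.78 (SE) on the log2 scale, 9.26-fold higher in rIPCl (limma adjusted p = 0.0348). CHI3L1, CCNB1, PBK, CCNB2 and MGP, given above, were also among the 10 largest increases. DUOX2, an oxidase that releases hydrogen peroxide, was at 2.73 (limma adjusted p = 0.0314), with its other 3 probes between 1.11 and 2.64. DKK2, a modulator of Wnt signalling, was at 1.94 (limma adjusted p = 0.0337), and the chaperone CLGN at 2.05 (limma adjusted p = 0.0316). GAD1, which makes the transmitter GABA, was not well above background on any control array and was at least 1.24-fold higher in rIPCl (limma adjusted p = 0.0330). Of all called genes 178 belonged to no list.

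Since no slide held both groups, slide and group cannot be told apart from these arrays alone. A fixed slide block links them only through the rIPCe arrays, and with it 7 genes were higher and 8 lower, against 284 and 159 at an unadjusted p under 0.05 in limma. With slide as a random block limma called 0 and 0, against 322 and 260 at an unadjusted p under 0.05. The list medians under the random block kept the sign they had without it in all 29 lists, and under the fixed block the medians of glycolysis, of the tricarboxylic acid cycle and respiratory chain and of T and NK cells changed sign. Of these 82 called genes MMP3 alone was called under the fixed block.

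**Figure D5:**
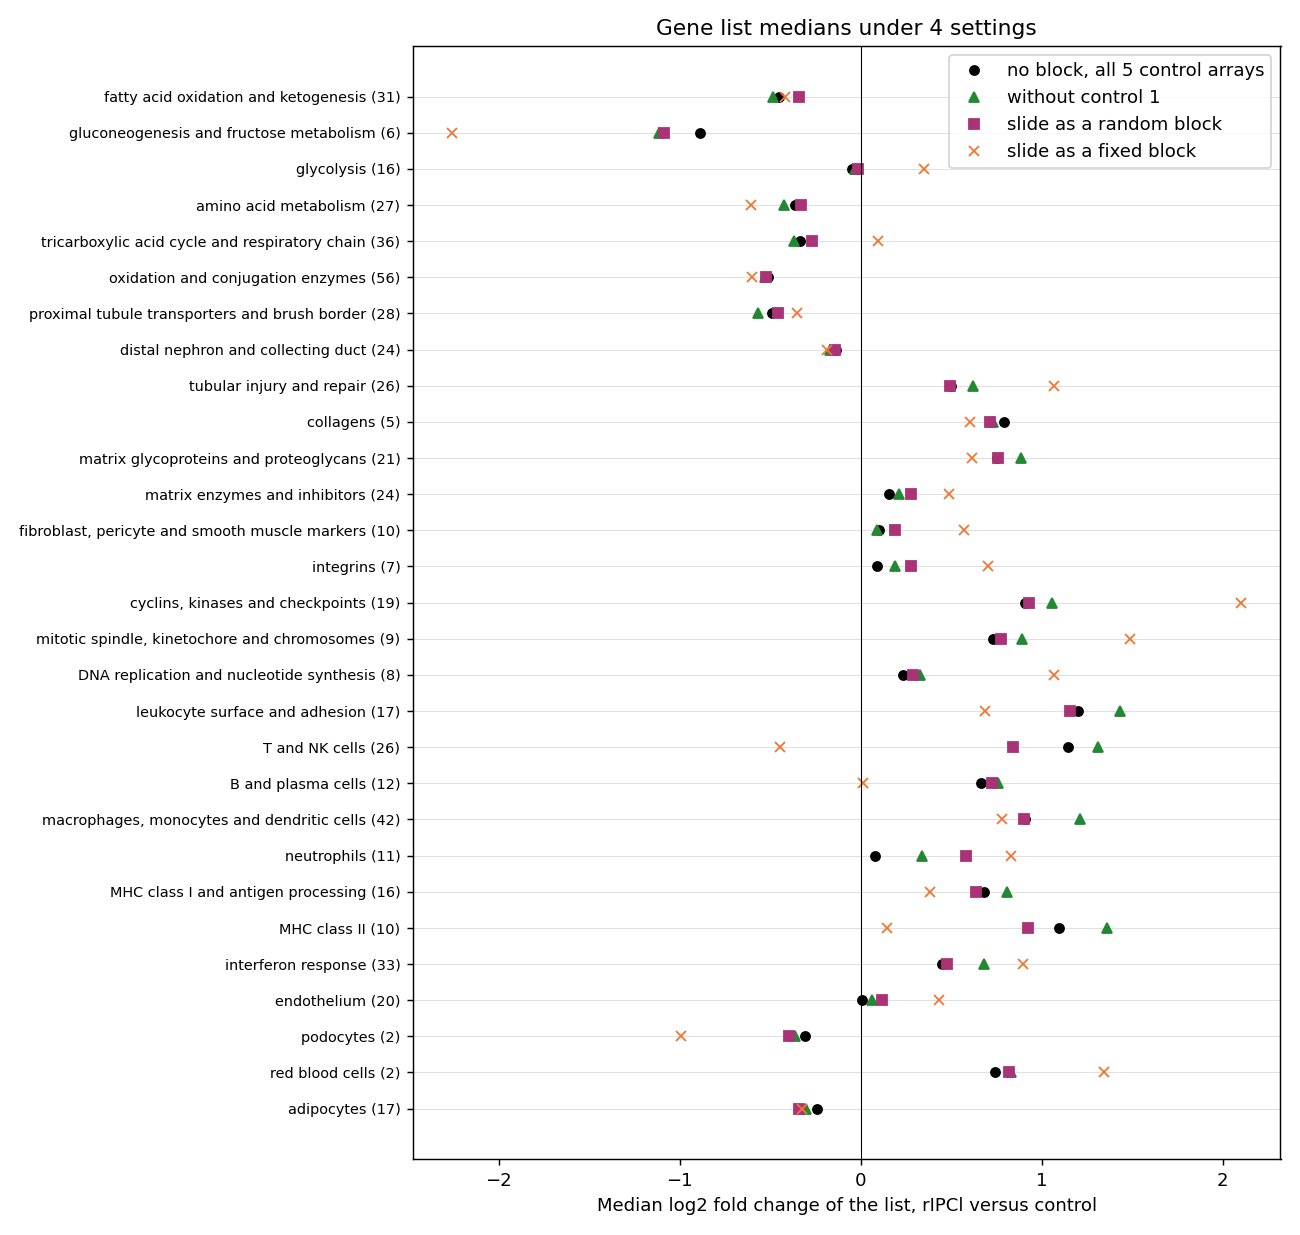
Median log2 fold change of each gene list in rIPCl versus control over all arrays (black circles), without control 1 (green triangles), with slide as a random block (purple squares) and with slide as a fixed block (orange crosses). The circles, triangles and squares lie close together in most lists, and the crosses lie furthest from them in gluconeogenesis (-2.26), T and NK cells (-0.45) and cyclins, kinases and checkpoints (2.10).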

How the data were processed

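Kidney RNA of 15 pigs, 1 array each, was measured on 1-colour Agilent arrays. The deposited scanner files hold the processed intensity of each spot, which the authors extracted with Agilent Feature Extraction 11.0.1.1, per the submitters' processing notes. The deposited value table equalled the mean processed intensity of all 43603 probes within a relative tolerance of 1e-06. After the study's methods, the intensities were log2 transformed and quantile normalized over 15 arrays, here with outlier and control spots left out (43803 spots, 1417 control spots), and spots were averaged to 43603 probes. A mean for each of 3 groups was fitted with limma 3.58.1 in R 4.3.3, with Benjamini-Hochberg adjustment over 43603 probes, and adjusted p under 0.05 counted as called. RefSeq accessions gave 6686 probes a symbol of 3020 genes (names of the Sscrofa11.1 annotation), and the probe with the highest mean signal stood for a gene. Fold changes are differences of group means, and values are per probe, with the number of arrays limiting their precision. Nothing in the labels links pigs of the 2 groups. Tested on simulated data for rIPCl versus control, with 43603 probes, the fit recovered 83% of shifts of 2 on the log2 scale and 39% of shifts of 1, with 6 false calls. The simulated noise was independent between probes and arrays and held no slide effect, so these rates need not hold for the real arrays.

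Members and lists were chosen with earlier results of these data known. Named were the called members of a list with the largest changes, up to 6, and up to 4 that define a role, with values on every array for the 2 of lowest limma p, and the 10 largest increases and decreases among called genes whose groups did not overlap and that stood well above background throughout at least 1 group. Complement, coagulation and cytokine genes were set aside. Alternatives were other normalizations, filters, probe rules, tests, blocks and arrays left out, and the t-test named in the methods was one of them. Promoter sequences were not analysed here, and some genes that the rule gave are not reported here.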

Additional observations from a re-analysis of the deposited data

Results flagged for a closer look

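In the 5 control and the 5 rIPCl arrays of each of 169 named genes, the array at either end was compared with its nearest neighbour, and the gap was set against the range of the group. In 26 of 338 groups the gap exceeded Dixon's 95% critical value of 0.71, where chance gives about 1 in 20 groups, and genes of one array are not independent. Control 1 was the array in 11 of them, control 5 in 5, rIPCl 3 in 4, rIPCl 4 in 3, rIPCl 2 in 2 and rIPCl 5 in 1. Values below are log2 signals, with the range of the other 4 arrays of the group after them.

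Control 1 was high in immune genes. Its signal was 13.13 against 9.18 to 10.08 in LYZ, 5.70 against 1.93 to 2.48 in the RNA receptor TLR8 and 11.82 against 10.16 to 10.50 in CD48. In antigen presentation it was 12.02 against 10.85 to 11.18 in CD74, 13.38 against 12.07 to 12.14 in SLA-DMA and 9.97 against 8.88 to 9.16 in TAP1. The adhesion molecule MADCAM1 was at 8.55 against 7.43 to 7.74 and the mitotic gene BIRC5 at 11.74 against 10.00 to 10.37. Among metabolic genes control 1 was high in the hexokinase HK2, a dim probe (2.14 against 1.48 to 1.56), and low in PC (11.66 against 13.14 to 13.73) and SORD (12.30 against 12.90 to 13.07).

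Control 5 was high in the adipocyte genes LEP (8.60 against 7.78 to 7.91), ADIPOQ (4.70 against 3.67 to 3.92) and PLIN1 (2.92 against 1.65 to 1.82), of which ADIPOQ and PLIN1 were not well above background on any control array. It was also high in COL1A2 (13.30 against 12.62 to 12.80) and low in IDH3B (13.39 against 13.61 to 13.66).

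Among rIPCl arrays, rIPCl 3 was high in the B cell gene CD79A (7.12 against 5.51 to 5.89) and low in CTSB (16.64 against 17.14 to 17.30), SPP1 (16.20 against 16.88 to 17.10) and the glycolytic enzyme GAPDH (18.05 against 18.32 to 18.43). The array rIPCl 4 was high in the mitotic genes PBK (12.47 against 11.21 to 11.54) and TOP2A (10.22 against 9.26 to 9.53) and low in WT1 (8.08 against 8.98 to 9.31). The stromal genes DCN (14.23 against 15.02 to 15.16) and THY1 (3.22 against 4.53 to 5.02) were low on rIPCl 2, and the interferon-induced gene ISG15 was high on rIPCl 5 (15.48 against 13.32 to 13.42).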

How the results depend on the processing

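Calls depended on single arrays and on slide. When each array was left out in turn, genes higher ranged from 1 to 259 (135 with all arrays), genes lower from 2 to 241 (152), lower tubule genes from 0 to 46 (37), higher matrix genes from 0 to 9 (5), higher proliferation genes from 0 to 13 (7), higher immune cell genes from 0 to 57 (23), altered probes from 2077 to 3010 (2540), and the glycolysis median from -0.19 to 0.0040. Subtraction of the 75th percentile gave 251 higher and 322 lower genes, 65 tubule, 11 matrix, 12 proliferation and 47 immune cell genes, and a glycolysis median of -0.23. Without dim probes there were 207 higher genes, 8 matrix and 38 immune cell genes, 1604 altered probes, and medians of -0.20 for glycolysis and -0.42 for red blood cells, all over fewer probes. Averaging the probes of each gene gave -0.12 for glycolysis. With the 10 arrays alone, 101 genes were lower, with 24 tubule, 3 proliferation and 12 immune cell genes. The methods' t-test called 54 higher and 89 lower, 17 tubule, 7 immune cell and 0 proliferation genes (18 at an unadjusted p under 0.05). Normexp on the median signal, chosen after seeing the data because the mean signal planned for it was not among the columns used here, gave 718 altered probes and medians of 0.34 for collagens, 0.39 for matrix glycoproteins, 0.45 for leukocyte surface genes, 0.43 for macrophage genes and 0.038 for red blood cells, and the planned normexp on the mean signal was not run.

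With slide as a fixed block limma called 7 higher and 8 lower genes, 1 tubule and 1 matrix gene, 0 proliferation genes (6 at an unadjusted p under 0.05) and 0 immune cell genes (15), with 3845 altered probes. The medians that moved by more than the spread between arrays were then -2.26 for gluconeogenesis, 0.35 for glycolysis, -0.61 for amino acids, 0.094 for the tricarboxylic acid cycle, 1.07 for injury, 0.49 for matrix enzymes, 0.57 for fibroblasts, 0.71 for integrins, 2.10 for cyclins, 1.49 for the spindle, 1.07 for DNA replication, 0.69 for leukocyte surface, -0.45 for T and NK cells, 0.014 for B cells, 0.83 for neutrophils, 0.14 for MHC class II, 0.43 for endothelium, -0.99 for podocytes and 1.35 for red blood cells. The called genes ATP5G3, ATP5I, CYP1A1, NDUFC1 and TXN turned to 0.10, 0.073, 0.38, 0.056 and 0.0067. With slide as a random block limma called 0 higher and 0 lower genes (322 and 260 at an unadjusted p under 0.05), and 0 tubule (61), 0 matrix (17), 0 proliferation (17) and 0 immune cell genes (44), with medians of 0.28 for integrins and 0.58 for neutrophils. The cause of these changes was not tested.

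Same-numbered arrays of the groups shared only a number: the correlations of their deviations from the group means were 0.0263, 0.0741, -0.057, -0.0206 and 0.0276 for replicates 1 to 5. With the replicate block limma called 31 higher and 82 lower genes, 2 matrix, 7 immune cell and 0 proliferation genes (17 at an unadjusted p under 0.05). Of the 82 called named genes, 82 were called with the deposited value table, with outlier spots kept and with a trended robust prior, 81 with the 75th percentile, 78 without dim probes, 74 with the mean of probes, 72 with normexp, 49 with 10 arrays, 36 by the methods' t-test, 35 with the replicate block, 1 with the fixed and 0 with the random slide block. Signals not well above background limit what can be said of dim probes, and 5 arrays a group limit every call.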
